A study of Mus musculus with 4 samples.

Results

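Endothelial-like cells were described in single-cell RNA libraries of sorted cells from the lungs of MMTV-neu mice. They were chosen by expression: a called lung cell counted as endothelial-like when it held at least 4 UMIs (tags on single captured RNA molecules) summed over Cldn5, Ramp2, Egfl7, Cdh5, Tmem100 and Calcrl, and more of these than of the alveolar type 1 genes Ager, Cldn18, Akap5, Rtkn2 and Hopx. A barcode was called a cell at 500 to 10000 UMIs, at least 250 detected genes and at most 20% mitochondrial UMIs. By this rule 94 of 386 called lung cells were endothelial-like, out of 2099 called cells in the 4 libraries of the series. The late lung gave 39 of 202 cells (19.3%, exact 95% interval 14.1% to 25.4%) and the early lung 55 of 184 (29.9%, 23.4% to 37.1%).

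Both lung libraries came from mice of the FvB strain that carry MMTV-neu, a transgene that expresses rat Erbb2 (HER2), an oncogene, in mammary epithelium from a mouse mammary tumor virus promoter. The late mice were over 20 weeks old and had primary tumors, and the early mice were 14 to 18 weeks old with no tumor that could be felt. Neither stage has a mouse without the transgene. Lungs were digested and cells lacking CD45 (the leukocyte antigen encoded by Ptprc) and positive for HER2 were sorted before encapsulation, and the labels call the sorted cells breast cancer cells. With 1 library per stage there is no replicate and no test. The exact 95% intervals given with values cover counting error and leave out how mice or single cells vary.

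The libraries held 1070236 UMIs in the late lung and 743765 in the early lung, and no cell barcode was shared between any of the 4 libraries. Endothelial-like cells were shallow: the median was 792 UMIs (range 506 to 8543) in the late lung and 816 UMIs (502 to 2250) in the early lung, with a median of 517 and 490 detected genes. Summed over cells this gave 48187 UMIs for the late lung and 48993 for the early lung. The late sum rested on few cells: the deepest cell held 17.7% of it and the 5 deepest 45.8%, against 4.59% and 18.5% in the early lung. Mitochondrial transcripts made up a median 4.12% of UMIs in late and 4.46% in early endothelial-like cells, against 2.08% and 2.61% in the other lung cells. Levels are given as counts per 1000000 UMIs (CPM) of such a sum.

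Endothelial cells line the blood vessels, and in the lung most of them form the capillary net around the alveoli. This net holds a pair of known capillary cell types. General capillary cells resemble capillaries of other organs and serve as the renewing population, and aerocytes (Car4-high cells) are large, lung-specific cells that lie across the thin barrier facing alveolar type 1 cells, where gas is exchanged. Vascular endothelial growth factor (VEGF), angiopoietin, Notch and bone morphogenetic protein (BMP) signals act on lung endothelium, and its lumenal surface carries enzymes and receptors that process circulating peptides.

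The 6 genes that chose the cells are a description and not a finding. Cldn5, the endothelial tight junction claudin on mouse chromosome 16 (18776847 to 18778262, mm10), had 133 UMIs in late and 100 in early endothelial-like cells, in 24 of 39 and 36 of 55 cells. Ramp2, the partner of the adrenomedullin receptor, had 139 and 121 UMIs in 30 late and 45 early cells, and Calcrl, the receptor that Ramp2 pairs with, had 85 and 79 UMIs. Egfl7, a secreted factor of endothelial cells, had 113 UMIs in late and 113 in early cells. Cdh5, the cadherin of endothelial adherens junctions, had 60 and 40, and Tmem100, a target of BMP and ALK1 signalling in endothelium, had 136 and 145. At least 3 of the 6 genes were detected in 34 of 39 late and 49 of 55 early cells, and 0 late and 1 early cells rested on a single gene. At the threshold, 6 late and 8 early members had exactly 4 marker UMIs, and 6 late and 9 early cells with 3 stayed outside. The alveolar type 1 genes had no UMI in 19 late and 24 early members and at least 2 in 9 late and 12 early members, as the plot of marker UMIs per cell shows.

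**Figure D1:**
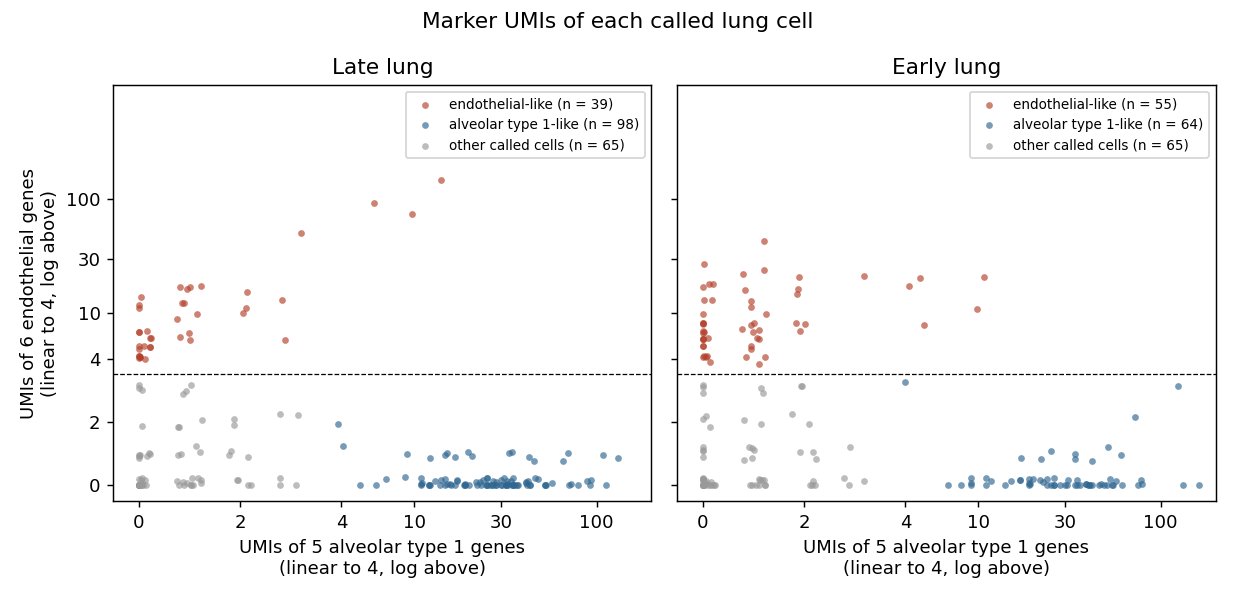
UMIs of the 6 endothelial genes against UMIs of the 5 alveolar type 1 genes in each called cell of the late lung (left) and early lung (right). Points are cells, moved slightly at random to separate them, on axes linear up to 4 UMIs and logarithmic above, and the dashed line marks the threshold of 4 UMIs. The 39 late and 55 early endothelial-like cells lie above the line, and no cell with 4 or more endothelial UMIs held as many alveolar type 1 UMIs.

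Endothelial genes that the rule did not use were higher in the same cells in both lungs. The list of further endothelial markers holds 35 genes, and those with too few counts were not compared. Of those with enough counts, 26 of 26 lay at least 2-fold above the other called lung cells in the late lung, with a median log2 ratio of 4.25. In the early lung 22 of 22 did, with a median of 3.13. The background is large, since 20.5% of 1909 genes compared in the late lung and 21.9% of 1556 in the early lung lay 2-fold higher, 18.7% and 18.1% lay 2-fold lower, and the median of all genes was 0.15 and 0.25. These ratios describe cells that were chosen on endothelial expression and carry no test. The minimum of 20 counts is taken over both sums, so a marker can pass it through the endothelial-like cells alone. Cd93, for example, had 37 late and 26 early UMIs in them, against 3 and 1 in the other cells. For such genes the filter largely fixed the direction, here and in the lists below that are set against other or alveolar type 1-like cells. Flt1, a VEGF receptor, stood at 560.3 CPM in late and 633 CPM in early endothelial-like cells, against 21.1 and 20.9 CPM in the other lung cells (log2 ratio 4.59, interval 3.21 to 6.71, and 4.72, 3.24 to 7.27). Icam2, an endothelial adhesion molecule, stood at 1121 and 796 CPM against 36.9 and 55.8 CPM, and Thbd, thrombomodulin, at 1141 and 796 CPM against 57.9 and 90.7 CPM. Pecam1 (CD31) separated the classes least among these markers: 955 and 979.7 CPM against 353 and 475 CPM gave log2 ratios of 1.44 and 1.05, and 31.6% of late and 28.1% of early alveolar type 1-like cells also held a Pecam1 UMI. Nos3, the endothelial nitric oxide synthase gene, had no UMI in any of the 94 cells, which at this depth does not show that it was absent.

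The genes that stood farthest from the other lung cells in both libraries, apart from the rule genes, were mostly surface proteins and enzymes of lung capillaries. Among them were the thrombospondin and fatty acid receptor Cd36 (log2 ratio 4.77 in the late lung and 4.45 in the early lung), the surface antigen Ly6c1 (5.51 and 3.56), the C-type lectins Clec1a (5.33 and 4.52) and Clec14a (4.11 and 3.91), and the lectin-like receptor Cd93 (5.40 and 5.69). Plvap, which forms the diaphragms of fenestrae and caveolae, had ratios of 4.57 and 3.28, and Ace, the angiotensin-converting enzyme of the lung vascular surface, of 4.61 and 3.53. Hpgd, the enzyme that inactivates prostaglandins in the lung circulation, stood at 2158 CPM in late and 2266 CPM in early endothelial-like cells, against 174 and 174 CPM in the other cells. Acer2, an alkaline ceramidase, Cyyr1, Slc43a3, Ehd4, a membrane-trafficking ATPase, and the tetraspanin Tspan13 completed the 15, with ratios from 3.32 (Ehd4) to 4.38 (Acer2) in the late lung and from 3.23 (Tspan13) to 5.39 (Cyyr1) in the early lung. On the low side stood the airway secretory protein Scgb1a1, the lipid-transfer gene Sec14l3, the alveolar genes Igfbp2 and Prdx6, and S100a6. Sec14l3 had no UMI in either sum, against 1137 CPM in the other late and 1173 CPM in the other early cells, which makes it at least 18.3-fold and 19.1-fold lower. Although it was placed on the airway list, its level was higher in alveolar type 1-like cells than in the other lung cells as a whole. The log2 ratios were -7.63 late and -7.74 early against the former and -6.78 and -6.85 against the latter. Of the 1403 genes compared in both lungs, 178 (12.7%) were 2-fold higher in both, which is 65.4% of the 272 higher in the late lung and 60.3% of the 295 higher in the early lung, and 159 (11.3%) were lower in both.

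The genes of the sorted antigens had next to no UMIs. Erbb2, the gene of the sorted HER2 antigen, had 1 UMI in the late and 0 UMIs in the early endothelial-like cells, and Ptprc had 0 in both. The other lung cells held 0 late and 1 early Erbb2 UMIs, so at this depth the gene was too sparse to compare between the classes. Epcam, the epithelial adhesion gene, also had 0 UMIs in both. The count tables have a single Erbb2 row and none that names the rat transgene. Of 14 mammary luminal markers, 5 were detected in late and 3 in early endothelial-like cells, with 10 UMIs (208 CPM) and 8 UMIs (163 CPM) in all, against 4901 and 1591 CPM in the other lung cells. Since the cells were chosen by endothelial genes, those genes are no test of the label of breast cancer cells, and how the cells entered the sort gate was not tested.

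Most genes that define other lung cell types were low or absent. The fibroblast collagens Col1a1, Col1a2 and Col3a1, with Dcn and Pdgfra, and the mural cell genes Pdgfrb, Cspg4, Acta2, Myh11 and Notch3 had 0 UMIs in both libraries. Summed over 12 pericyte and smooth muscle markers the level was 311 CPM in late and 388 CPM in early endothelial-like cells, against 2506 and 2813 CPM in the other cells, and over 10 fibroblast markers it was 104 and 122 CPM against 2243 and 5493 CPM. The 5 mesothelial markers had no UMI, the 11 leukocyte markers 2 late and 0 early UMIs, the 8 alveolar type 2 markers 3 UMIs each, and the 7 red cell and platelet markers 5 and 7 UMIs. The 9 further alveolar type 1 markers had 95 UMIs in each lung, in 20 late and 37 early cells. Of the 8 measured, 5 were lower in the late lung and 6 in the early lung. Emp2 (log2 ratios -0.75 and -0.40) and Clic5 (-0.23 and -0.66) stayed within 2-fold of the other cells. So did the airway list gene Tppp3 (31 and 42 UMIs, -0.83 and -0.85). Scgb1a1 was lower but not scarce: 205 late and 232 early UMIs, in 36 and 50 cells, gave 4254 and 4735 CPM, against 123567 and 157128 CPM in the other lung cells. This airway gene also made up 75474 CPM of the UMIs in barcodes with 1 to 50 UMIs in the late lung and 45865 CPM in the early lung, which serve as an estimate of free RNA. Hopx and Ager are both genes of the rule, so their ratio is a description. Hopx had 5.25 times the UMIs of Ager in late and 5.60 times in early endothelial-like cells, against 0.743 and 0.742 times in alveolar type 1-like cells and 0.739 and 0.757 times in the free RNA.

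Receptors of growth and vessel-stabilising factors made up the next group. In the VEGF and angiopoietin list 5 of 7 measured genes in the late lung and 4 of 5 in the early lung were 2-fold higher than in the other lung cells, and 1 in each was lower (medians 4.18 and 3.0). Kdr, the main VEGF receptor, had 37 late and 18 early UMIs, Nrp1, its co-receptor, had 34 and 20, and Tek, the angiopoietin receptor TIE2, had 24 and 20. Ptprb, the phosphatase that opposes TIE2 and VEGF receptor activity, had 49 and 38, and Tie1, an orphan relative of TIE2, had 16 and 6. Other receptors of the list were scarce, with 3 late and 0 early UMIs for Flt4 and 0 and 5 for Nrp2. Nrp2 was the lower gene of the late lung. The ligand gene Vegfa had 15 and 10 UMIs and lay below the other cells, past 2-fold in the early lung. Its levels were 311 and 204 CPM against 463 and 530.5 CPM (log2 ratios of -0.53 and -1.32). Vegfb, Vegfc, Pgf, Angpt1 and Angpt2 had between 0 and 3 UMIs each. The late median of this list rests on few cells: it stood at -1.15 without cells over 2000 UMIs and at -0.73 without cells holding at least 2 UMIs of another type's markers.

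The BMP and ALK1 pathway, which restrains vessel growth, was higher in 7 of 8 measured genes in the late lung and 7 of 7 in the early lung (medians 3.05 and 2.80). Its receptors Acvrl1 (ALK1), Bmpr2 and Eng (endoglin) had log2 ratios of 3.45, 3.04 and 3.47 in the late lung and 3.20, 3.18 and 2.80 in the early lung. The pathway's targets Id1 and Id3 and its inhibitor Smad6 had ratios of 3.05, 2.72 and 4.69 late and 2.59, 2.15 and 3.30 early. Receptors, targets and feedback inhibitor thus all lay above the other lung cells. Id2 was the exception in the late lung (0.55), and the ligand genes Bmp4 and Bmp6 had 2 UMIs or fewer. Notch genes were too sparse to compare: the receptor Notch1 had 4 late and 11 early UMIs, the ligand Dll4 4 and 3, and the target Hes1 16 and 5, and Hes1 was the sole list member with enough counts (late lung, 0.91).

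Among vasoactive genes 6 of 6 measured in the late lung and 5 of 5 in the early lung were higher than in the other cells, Ramp2 and Calcrl of the rule included. The adrenomedullin receptor pair had little of the alternative partners, since Ramp1 had 0 UMIs in both and Ramp3 1 and 2, and the ligand Adm had 0. Of the endothelin system, Ece1, which matures the peptide, had 20 UMIs in late and 20 in early cells. Edn1, the peptide gene, had 8 and 18, and the receptor Ednrb 8 and 1. S1pr1, the sphingosine 1-phosphate receptor that keeps the barrier tight, had 28 late and 17 early UMIs. The natriuretic peptide clearance receptor Npr3 had 13 and 9, and the guanylyl cyclase receptor Npr1 9 and 2. The prostanoid enzymes Ptgs1 and Ptgis had 2 UMIs or fewer in each library.

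Of the endothelial transcription factors 9 of 10 measured in the late lung and 9 of 9 in the early lung were higher (medians 3.0 and 2.40). Epas1 (HIF2A), a hypoxia-inducible factor subunit of lung endothelium, had 141 late and 117 early UMIs and stood at 2926 and 2388 CPM against 300.1 and 586 CPM in the other cells. Foxf1, which lung capillaries require, had 41 and 28 UMIs, and Klf2, which responds to blood flow, 44 and 110. Nr2f2, the vein factor, was the one lower factor, with 0 UMIs in both libraries.

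Junction, caveola and blood-surface genes were mixed. Of 8 measured junction genes 5 were higher in each lung and 1 lower in the early lung (F11r). Cldn5 and Cdh5 of the rule are among them, and without these the count was 3 of 6 (Pecam1, Esam and Icam2). The ubiquitous catenin Ctnnb1 and the small GTPase Rap1b stayed within 2-fold of the other cells. In the caveola and lipid list 6 of 9 genes in the late lung and 7 of 9 in the early lung were higher, and 0 and 1 lower. Cav1, the main caveolin, stood at 1888 and 1796 CPM against 689.7 and 831 CPM in the other cells. Gpihbp1, the anchor of lipoprotein lipase on capillaries, had log2 ratios of 5.33 and 3.16, while the fatty acid binding genes Fabp4 and Fabp5 had 0 UMIs. In the clotting list Thbd and Vwf (von Willebrand factor; 17 and 18 UMIs) were higher in both lungs, and Anxa2 was 2-fold lower in the late lung (-1.32, against -0.93 in the early lung). The leukocyte adhesion list had 2 of 3 measured genes higher (Icam2 and Cxcl12) and Icam1 lower in both lungs. The inducible selectins Sele and Selp had 0 UMIs, and Vcam1 had 2 and 0.

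Antigen presentation genes were higher than in the other lung cells. All 9 measured MHC class I genes were higher in each lung (medians 2.72 and 2.71). H2-D1 stood at 10646 CPM in late and 8369 CPM in early endothelial-like cells, against 1816 and 2052 CPM, and B2m, the shared light chain, at 7948 and 7532 CPM against 1901 and 2149.8 CPM. The class I heavy chain genes are close relatives, so reads may be split among them. Class II genes were also higher, 3 of 3 in the late and 2 of 2 in the early lung. Cd74, the class II invariant chain, stood at 2387 and 1204 CPM against 279 and 154 CPM. Of the interferon-inducible genes 5 of 6 and 5 of 5 were higher, led by the surface antigens Ly6a (4.21 and 2.76) and Ly6e (3.24 and 2.47) and by Ifitm3 (2.41 and 1.99). The lower gene was Ifit3, and the classical response genes Isg15, Ifit1 and Irf7 had 3 UMIs or fewer.

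Oxidative phosphorylation genes lay near the rest of the lung, and other programs were split. Of 14 oxidative phosphorylation genes none was higher and 0 (late) and 1 (early) lower, with medians of -0.04 and 0.05. In the hypoxia and glycolysis list 0 of 7 in the late and 1 of 6 in the early lung were higher and 1 in each was lower. The list summed to 1785 CPM in late endothelial-like cells against 2969 CPM in the other cells (log2 ratio -0.73, -1.08 to -0.40). In the early lung the sums were 1633 against 2080 CPM (-0.34, -0.72 to 0.01). The immediate early list had 7 of 14 higher and 3 lower in the late lung and 5 of 10 and 3 in the early lung, where 20.5% and 21.9% of all genes compared were higher. Its summed level was above that of the other cells in both lungs (log2 ratios 1.21, 0.97 to 1.45, and 1.41, 1.17 to 1.65). Jun and Klf2 were among the higher genes, while Fos was lower in both lungs with 0 late and 2 early UMIs. Matrix genes were split in the late lung (1 of 7 higher and 3 lower, median 0.17) and mostly lower in the early lung (1 of 8 higher and 7 lower, median -1.71). Sparc was lower in both, at 1038 and 1245 CPM against 3433 and 3364 CPM. Tip cell genes of sprouting vessels had 1 of 3 higher and 1 lower in the late lung and 0 of 3 higher and 3 lower in the early lung. Those measured were the type IV collagens Col4a1 and Col4a2 and Sparc, and the tip cell marker Esm1 had 4 late and 2 early UMIs. The inflammation list had Nfkbia, an inhibitor of NF-kappa-B, as its 1 higher gene of 3 in the late lung and of 2 in the early lung, and the measured rest was lower (Icam1 in both, Lcn2 in the late lung). Of the cell cycle genes, Mki67, Top2a, Cdk1 and Ccnb1 had 0 UMIs in both libraries. Stmn1 was the member with enough counts that was higher in both (2.46 and 4.56), and Tubb5 was higher in the late lung. The cell cycle list summed to 2283 CPM in late and 2123 CPM in early endothelial-like cells, against 979 and 656 CPM in the other cells (1.22, 0.87 to 1.57, and 1.69, 1.28 to 2.11).

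**Figure D2:**
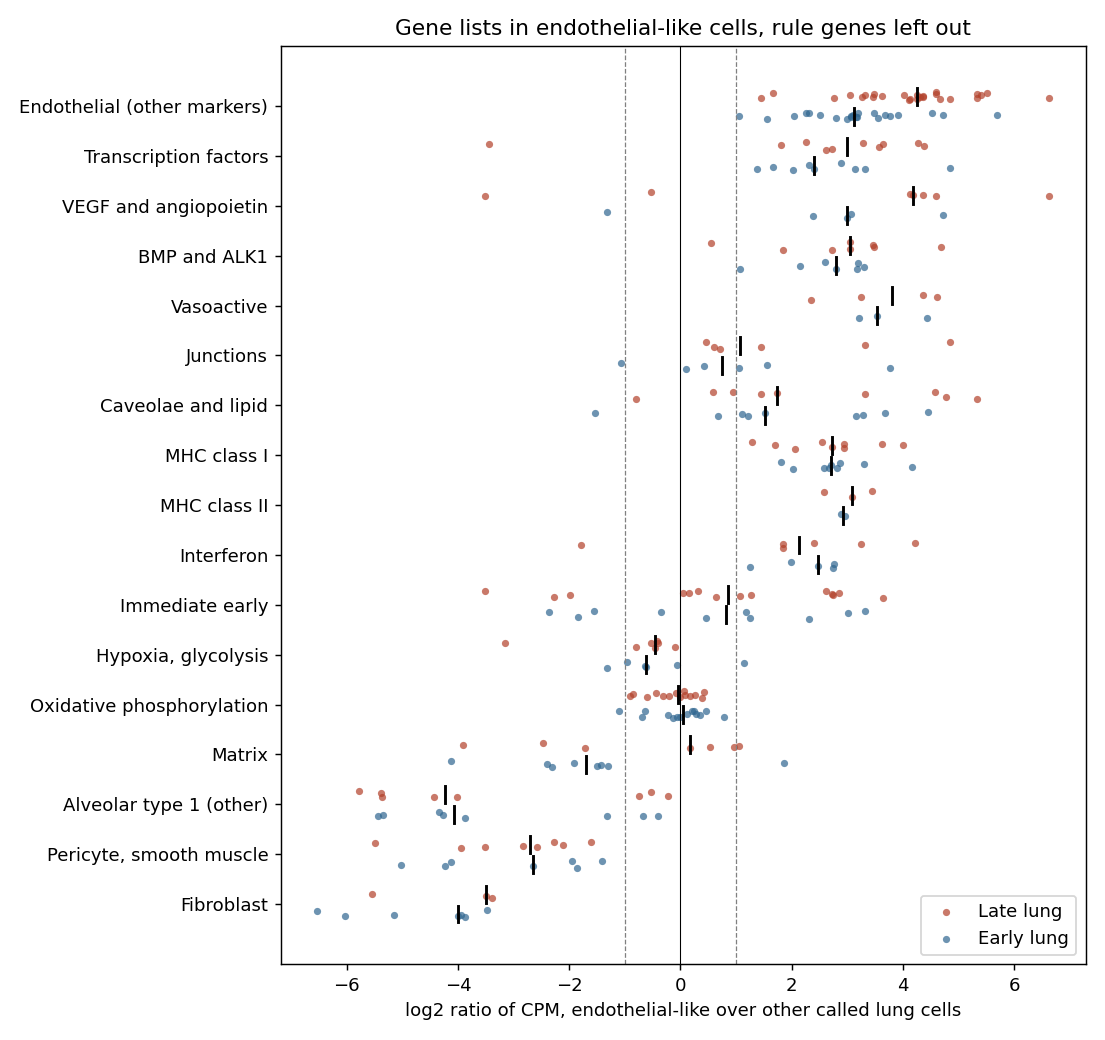
Log2 ratio of CPM in endothelial-like over other called lung cells for the members of 17 gene lists with at least 20 counts, late lung above early lung in each row. Points are genes, black bars are list medians, dashed lines mark 2-fold, and the 11 genes of the selection rule are left out. Further endothelial markers all lie to the right of 2-fold, and alveolar type 1, pericyte and fibroblast genes lie to the left of 0.

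Against alveolar type 1-like cells, chosen by the same rule turned round (98 late and 64 early cells), the same groups were compared. Here 22.8% of 1242 genes compared in the late lung and 21.5% of 1076 in the early lung were 2-fold higher and 19.5% and 21.4% lower. The further endothelial markers were higher in 24 of 24 and 22 of 22 measured genes (medians 5.50 late and 4.30 early), and the MHC class I list in 9 of 9 and 7 of 7. Emp2, a membrane protein of both alveolar type 1 cells and aerocytes, went the other way: 1038 CPM in late and 1327 CPM in early endothelial-like cells against 2829.6 and 2734 CPM in alveolar type 1-like cells. Clic5 stood at 539.6 and 327 CPM against 1178 and 983 CPM.

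Most endothelial-like cells carried general capillary genes. A cell was placed on the aerocyte side when it had at least 2 UMIs of Car4, Ednrb, Apln, Fibin, Tbx2 and Chst1 and more of these than of the general capillary genes Gpihbp1, Plvap, Aplnr, Kit, Cd93, Ptprb and Sema3c, and on the general capillary side in the reverse case. The aerocyte side held 3 of 39 late and 8 of 55 early cells. The general capillary side held 26 of 39 and 33 of 55, and 10 late and 14 early cells were not placed. Of the placed cells the aerocyte side made up 10.3% in the late lung (interval 2.19% to 27.4%) and 19.5% in the early lung (8.82% to 34.9%), and these intervals overlap widely. Cells that were not placed were shallower, with medians of 591 UMIs in both lungs against 892.5 and 900 on the general capillary side, so depth moved with placement. UMIs of both lists occurred together in 7 late and 13 early cells. The pair of deepest late cells, with 8543 and 6281 UMIs, held 14 and 13 aerocyte UMIs beside 70 and 48 general capillary UMIs, and whether they are doublets was not tested.

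**Figure D3:**
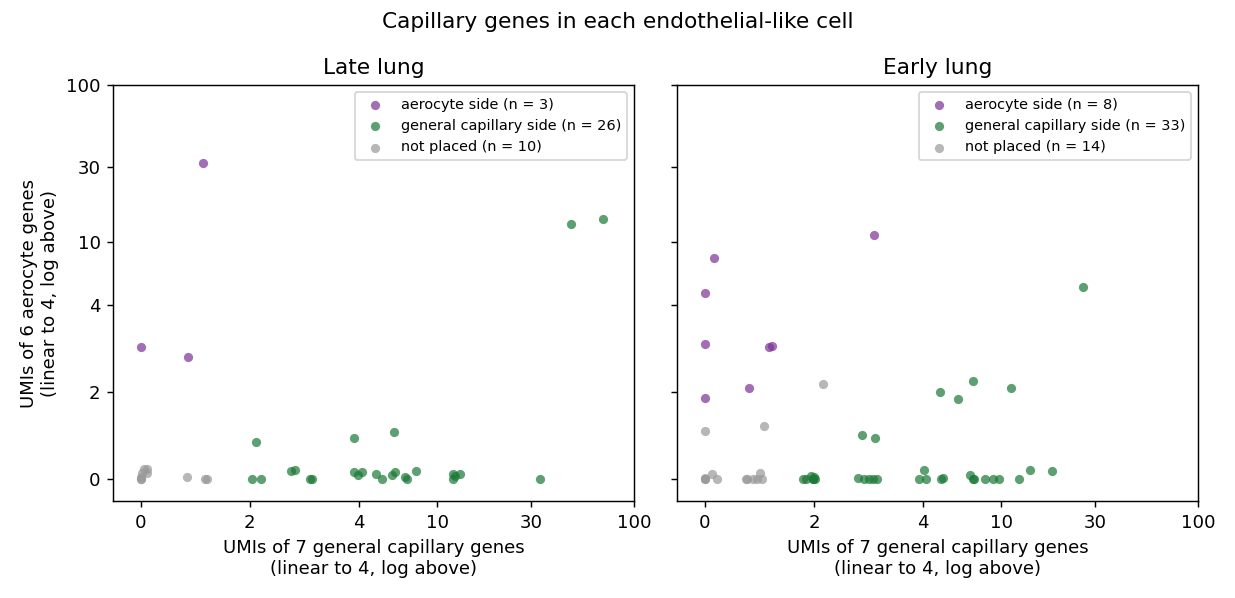
UMIs of the 6 aerocyte genes against UMIs of the 7 general capillary genes in each endothelial-like cell, late lung left and early lung right. Points are cells, moved slightly at random, on axes linear up to 4 UMIs and logarithmic above. General capillary cells (26 late, 33 early) spread along the horizontal axis, and the 3 late and 8 early aerocyte-side cells lie along the vertical one.

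The split genes were compared between sides only after leaving each out of the split in turn. Gpihbp1 then had 1 UMI on the aerocyte side and 54 on the general capillary side in the late lung (log2 ratio -2.46, interval -8.36 to -0.49), and 3 and 41 in the early lung (-1.80, -4.34 to -0.35). Cd93, with 0 against 36 late and 0 against 21 early UMIs, and Ptprb, with 0 against 47 and 1 against 25, were also lower on the aerocyte side, with intervals below equality in both lungs. Plvap (0 against 58 UMIs) and Sema3c (1 against 52) were lower there in the late lung. In the early lung their intervals included equality, at 6 against 48 UMIs for Plvap (-1.01, -2.63 to 0.11) and 2 against 19 for Sema3c (-0.97, -4.40 to 0.80). Kit, with 0 against 9 late and 1 against 3 early UMIs, and Aplnr, with 0 against 4 and 0 against 0, had too few to compare. Of the aerocyte genes, Ednrb had 6 UMIs against 2 in the late lung (4.20, 1.92 to 7.75) and 1 against 0 in the early lung. Fibin, Tbx2 and Chst1 had 4 UMIs or fewer on either side, and Apln had none in the late lung and 1 against 5 in the early lung. Without Car4 only 1 late and 2 early cells remained on the aerocyte side, so that side rests largely on Car4. Car4 then had 18 UMIs in that 1 late cell against 22 on the general capillary side (3.15, 2.16 to 4.11), and 0 against 10 in the early lung.

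Genes outside the split lists also differed between the sides, in few cells: the aerocyte side summed to 5163 UMIs in the late lung, 3373 of them in 1 cell, and to 7139 UMIs in the early lung. Of 194 genes compared, 13 (6.7%) lay at least 2-fold toward the aerocyte side and 6 (3.09%) toward the general capillary side in both lungs. Emp2 had the largest weaker ratio toward aerocytes, with 14 against 15 UMIs in the late lung (2712 against 411 CPM, log2 ratio 2.73, interval 1.56 to 3.87) and 27 against 23 in the early lung (3782 against 715 CPM, 2.40, 1.55 to 3.27). The endothelial chemotaxis regulator Ecscr followed (1.55 and 1.62), then Igfbp7, a secreted protein of vessel walls (1.53 and 2.13). Others on this side were the G protein subunit genes Gngt2 (2.27 and 1.52) and Gnb2 (2.05 and 1.38) and Hopx (1.24 and 1.72). The interval of Gnb2 in the early lung (-0.02 to 2.61) and that of Hopx in the late lung (-0.08 to 2.31) included equality. Toward the general capillary side lay Cd74, with 0 UMIs on the aerocyte side of both lungs against 102 late (2793 CPM) and 52 early UMIs (1616 CPM) on the other, at least 4.81-fold and 3.85-fold lower on the aerocyte side. Ifitm3 (-2.85 and -1.22), Tm4sf1 (-2.36 and -1.36), Tmsb10 (-2.58 and -1.03), Tpt1 (-1.89 and -2.47) and Sh3bgrl3 (0 UMIs against 20 and 24) lay the same way. For Tm4sf1 (-3.90 to 0.09) and Tmsb10 (-3.13 to 0.28) the early interval included equality, and for Sh3bgrl3 the late one did. The 5 alveolar type 1 genes of the rule summed to 2131 CPM late and 3222 CPM early on the aerocyte side, against 1068 and 1150 CPM on the general capillary side. On the aerocyte side Hopx supplied 9 of 11 late and 21 of 23 early UMIs, Ager 2 in each and Cldn18 0. The sums thus rest largely on Hopx, and since the rule used these genes they are a description. A single early aerocyte-side cell also held 13 UMIs of pericyte and smooth muscle markers, and the part of such transcripts in these ratios was not tested.

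Aerocyte genes kept out of the split were sparse. Kdr, Prx, Pmp22 and Kitl had log2 ratios of 0.85, 1.06, 1.10 and 1.35 in the late lung. In the early lung these were 1.38, 2.17, 3.12 and 3.11. All lay toward the aerocyte side, on 2 to 12 aerocyte-side UMIs each, but none of these genes had enough counts in both lungs to be compared. Every late interval included equality, as did that of Kdr in the early lung. The 7 late aerocyte-side Kdr UMIs lay in 1 cell. The early intervals of Prx (0.05 to 4.29), Pmp22 and Kitl lay above equality. Nrp1 differed in direction, with 0 against 32 UMIs in the late lung and 5 against 15 in the early lung (0.68). Among general capillary genes kept out, Tek and Cxcl12 had 0 UMIs on the aerocyte side of both lungs, as did Vwf of the vein list. The intervals of Tek, Cxcl12 and Vwf included equality in both lungs. Hpgd (0.43 and 0.00) and Cd36 (0.53 and 0.25) stayed within 2-fold between the sides.

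Against the other lung cells, the general capillary genes were 2-fold higher in 5 of 5 measured members of the split list in each lung and in 4 of 4 of those kept out. Of the aerocyte genes kept out, 4 of 6 were higher in the late lung and 3 of 6 higher and 1 lower in the early lung.

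Large-vessel and lymphatic genes were few. Of the arterial list, Efnb2 (21 late and 17 early UMIs) and Cxcl12 (15 and 20) were higher than in the other lung cells in both lungs, while the connexin Gja5 had 1 and 0 UMIs, Gja4 10 and 2, and the matrix genes Mgp and Fbln5 were lower. Of the venous list Vwf was higher in both, and Ackr1 had 0 UMIs. The lymphatic genes Prox1, Mmrn1, Ccl21a, Thy1 and Reln had 0 UMIs in both libraries. Lyve1, which lung capillaries also express, had 12 late and 10 early UMIs.

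Late endothelial-like cells were then set against early ones. The limit of 10000 UMIs had left out 6 late and 1 early cells that met the marker rule. Of 914 genes compared, 53 (5.8%) were 2-fold higher and 59 (6.46%) 2-fold lower in the late lung, with a median log2 ratio of -0.09 over all genes. Of these, 41 (4.49%) and 36 (3.94%) also had an interval that excluded a ratio of 1. Keeping cells over 10000 UMIs gave 390 higher and 182 lower genes. Without cells over 2000 UMIs, an alternative chosen after the data were seen, the counts were 34 and 37. The 6 rule genes kept within 2-fold (ratios from -0.07 for Tmem100 to 0.60 for Cdh5), and so did all 8 caveola genes and all 5 interferon genes. Of the further endothelial markers 4 of 31 were higher (Kdr, Tie1, Slco2a1 and Adgrf5) and 1 lower (Stmn2). Kdr, at 768 CPM in late and 367 CPM in early cells (log2 ratio 1.04, 0.21 to 1.96), had 13 of its 37 late UMIs in 1 cell and stood at -0.02 with each cell weighted equally and at -0.54 without cells over 2000 UMIs.

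Klf2, the flow-responsive factor (chromosome 8, 72319033 to 72321656, mm10), was lower in late endothelial-like cells. It had 44 UMIs (913 CPM) in late and 110 UMIs (2245 CPM) in early cells, a log2 ratio of -1.29 (-1.84 to -0.78), with UMIs in 20 of 39 and 42 of 55 cells. No single cell dominated, since the highest held 5 late and 7 early UMIs. The ratio was -1.45 on the general capillary side alone (33 against 80 UMIs) and between -1.37 and -1.09 over 14 other settings, all past 2-fold. In alveolar type 1-like cells it was 0.01 (15 against 11 UMIs), in the other lung cells as a whole -0.70 (26 against 32 UMIs), and in the free RNA -0.35. After thinning to 700 UMIs, 10 of 24 late cells (41.7%, 22.1% to 63.4%) and 20 of 29 early cells (69.0%, 49.2% to 84.7%) held a Klf2 UMI. Thinned to 1000 UMIs these were 8 of 8 and 14 of 16, with means of 1.38 and 2.19 UMIs per cell, so no order is read from the shares at that depth. Of 13 measured transcription factors 2 were higher (Gata2 and Klf7) and 3 lower, against 5.8% and 6.46% of all genes compared. The interval excluded a ratio of 1 for 1 of the 2 higher and for the 3 lower. The lower ones were Klf2, Foxp1 and Sox18, which acts in endothelial fate (13 against 34 UMIs, -1.33, and -0.76 with cells weighted equally). Klf4 and Klf6, with 19 against 12 and 20 against 14 UMIs, did not share the direction of Klf2 (0.67 and 0.52).

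MHC class II genes were higher in the late lung. Summed over the list the level was 4296 CPM in late and 1755 CPM in early endothelial-like cells (log2 ratio 1.29, interval 0.92 to 1.67). Cd74 had 115 and 59 UMIs (0.98), H2-Aa 34 and 16 (1.09) and H2-Ab1 38 and 9 (2.04, 1.03 to 3.34), so 2 of 3 measured members passed 2-fold. A class II UMI was present in 29 of 39 late cells (74.4%, 57.9% to 87.0%) and 26 of 55 early cells (47.3%, 33.7% to 61.2%), against 13.3% and 12.5% of alveolar type 1-like cells, whose median depths were 757 and 807.5 UMIs. Thinned to 700 UMIs the shares were 18 of 24 (75.0%) and 16 of 29 (55.2%), and thinned to 1000 UMIs 5 of 8 (62.5%) and 9 of 16 (56.3%), with overlapping intervals at both depths. The deepest late cell held 28.0% of the late class II UMIs, and weighting cells equally gave 0.61 for Cd74, 0.94 for H2-Aa and 1.51 for H2-Ab1. Without cells over 2000 UMIs these stood at 0.23, 0.19 and 1.59, and without cells holding at least 2 UMIs of another type's markers at 0.29, -0.34 and 0.70, so the size of the difference rests on few cells. Free RNA moved the same way, with 882 CPM of class II genes in late and 440.5 CPM in early barcodes of 1 to 50 UMIs (log2 ratio 1.0), and so did the other lung cells (1.21), in which 1 late cell held 44 of 93 UMIs, while alveolar type 1-like cells did not (0.03). The part of free RNA and of that cell in the result was not tested. In both lungs the class II UMIs were absent from the aerocyte side, and on the general capillary side the level was 5121 CPM late and 2268 CPM early.

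**Figure D4:**
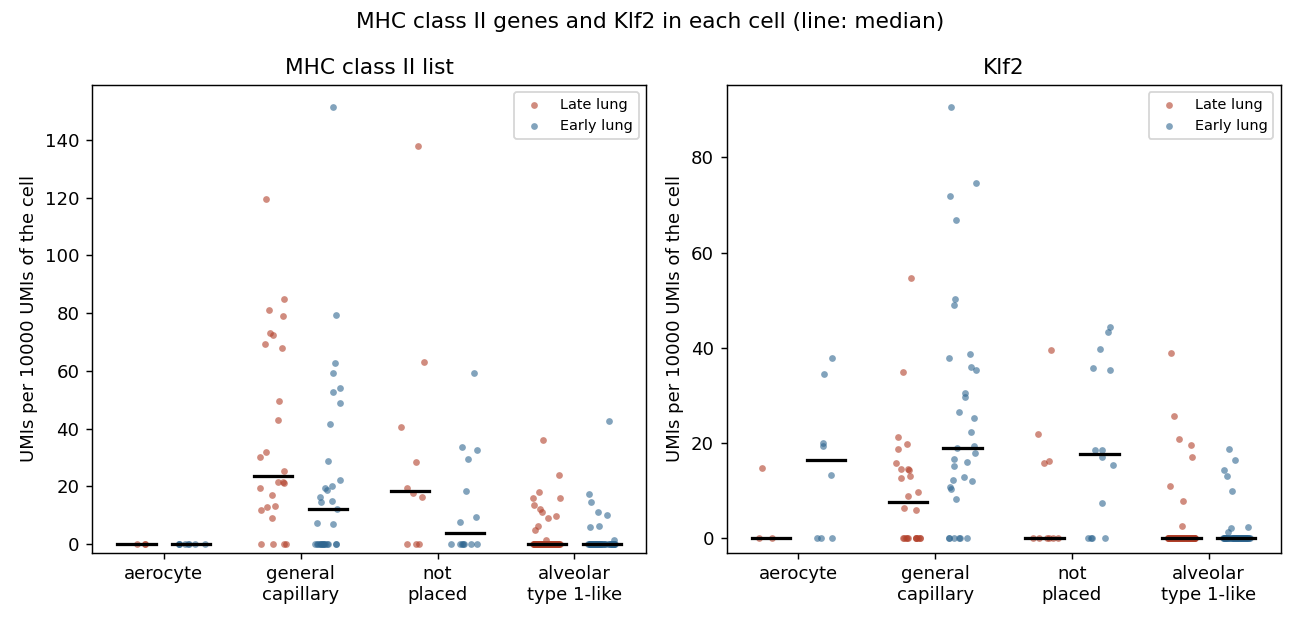
UMIs of the MHC class II list (left) and of Klf2 (right) per 10000 UMIs of the cell, by capillary side and in alveolar type 1-like cells, late lung left of early lung in each pair. Points are cells and black lines medians. Class II UMIs are absent from the 3 late and 8 early aerocyte-side cells, and the median of Klf2 on the general capillary side is 7.64 in the late and 19.0 in the early lung.

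The other genes farthest from a ratio of 1 on the high side were a mixed group. Cdkn1a (p21), an inhibitor of the cell cycle, had 68 late and 20 early UMIs in 18 and 11 cells (1.76, 1.05 to 2.59), 1.12 with cells weighted equally and 0.53 without cells holding other types' markers. Tsc22d3 (GILZ), a glucocorticoid-induced gene, had 43 and 14 UMIs (1.61). Both also moved in free RNA (1.63 for Cdkn1a and 1.01 for Tsc22d3), and Tsc22d3 in alveolar type 1-like cells (1.38, and 1.63 for Cdkn1a on 14 against 3 UMIs), whose part in the result was not tested. Sod1, the superoxide dismutase of the cytosol, had 29 and 9 UMIs (1.66, and 0.33 when cells over 10000 UMIs were kept), Cacybp 19 and 1 (3.72, 1.62 to 9.65), S100a10 18 and 4 (2.06) and Arhgap31, a GTPase-activating protein, 26 and 5 (2.29, 0.75 with cells weighted equally). Igfbp7 was just under 2-fold (156 against 81 UMIs, 0.97).

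Malat1, a nuclear long noncoding RNA, had the highest ratio of these and rested on few cells. It lies on chromosome 19 (5795690 to 5802672, mm10). Its 369 late UMIs lay in 9 of 39 cells, 223 of them in 1 cell, against 3 UMIs in 3 of 55 early cells (6.75, 5.41 to 9.25). All Malat1 UMIs of both lungs were on the general capillary side. With cells weighted equally the ratio was 4.97, and it was 1.39 when cells over 10000 UMIs were kept. It was 1.58 in free RNA and 1.47 in the other lung cells, whose part in the result was not tested.

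On the low side, besides Klf2 and Sox18, stood Sec62 of the protein translocation machinery (24 against 64 UMIs, -1.37), the septin Sept4 (17 and 46, -1.39), the microtubule regulator Stmn2 (25 and 55, -1.10), the autophagy receptor Sqstm1 (3 and 17, -2.30, interval -4.89 to -0.69), the translation factor Eef1b2 (8 and 24, -1.50), Gdpd3 (-1.19), Uqcrb of respiratory complex III (-1.05) and the splicing factor Luc7l3 (-1.73). Luc7l3 had 10 of its 18 early UMIs in 1 cell and stood at -0.30 with cells weighted equally, and Sept4 (-0.95), Stmn2 (-0.99) and Uqcrb (-0.56) were then also under 2-fold. With cells over 10000 UMIs kept, Sec62 (-0.64), Eef1b2 (-0.56) and Gdpd3 (-0.92) were under 2-fold. Uqcrb was the single lower gene of 13 oxidative phosphorylation genes, none of which was higher (median -0.23). The BMP and ALK1 list had 0 of 7 past 2-fold either way with a median of 0.70, and MHC class I 0 of 9 higher and 1 lower (Psmb8). In the vasoactive list 0 of 7 were higher and 1 lower (Edn1, -1.10, with an interval that included equality). In the VEGF and angiopoietin list 2 of 7 were higher (Kdr and Tie1) and in the immediate early list 1 of 7 was lower (Klf2). Single higher genes were Hes1 of the Notch list (16 against 5 UMIs), Tubb5 of 3 cell cycle genes and Timp3, a protease inhibitor, of 3 matrix genes. No gene of the junction (7), leukocyte adhesion (5), clotting (3) or hypoxia and glycolysis (4) lists passed 2-fold.

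**Figure D5:**
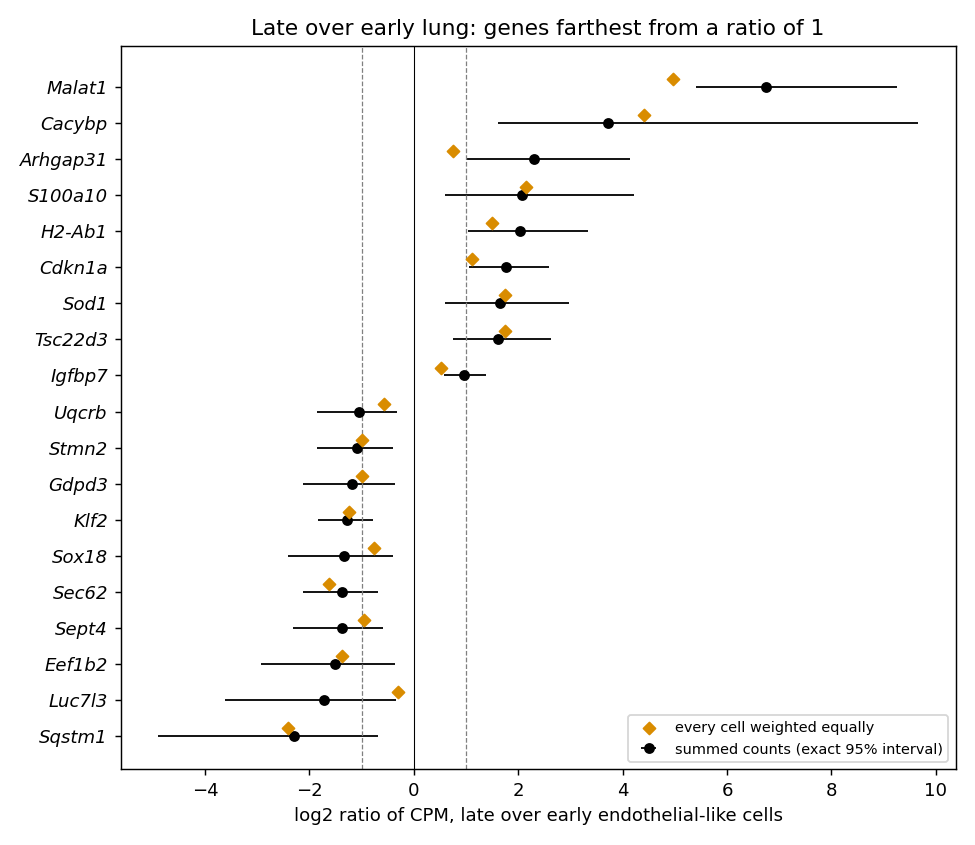
Log2 ratio of CPM in late over early endothelial-like cells for 19 of the 20 genes farthest from a ratio of 1 by their interval. Circles with bars are summed counts with exact 95% intervals, diamonds are ratios with every cell weighted equally, and dashed lines mark 2-fold. Malat1 is highest at 6.75 and Sqstm1 lowest at -2.30, and the diamond of Luc7l3 lies nearest to 0, at -0.30.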

How the data were processed

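The deposited files hold, for each of 4 libraries, raw UMI counts per gene and cell barcode, a matrix of 27998 genes by 737280 barcodes that the authors did not filter for cells, per the values. Libraries were made with droplet 3' chemistry and the genome build was mm10, per the labels' protocols and the submitters' processing notes. The aligner and its version, and the number of mice pooled per library, are not given in the sources used here. Only the 2 lung libraries entered comparisons, with 1 library per stage.

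Barcodes with 500 to 10000 UMIs, at least 250 genes and at most 20% mitochondrial UMIs were called cells, and classes were set by the marker rule in the text. Doublets were kept, and an alternative left out cells with at least 2 UMIs of other types' markers. Counts were summed per class and library and scaled to CPM. Log2 ratios had 0.5 counts added to each sum and exact conditional Poisson 95% intervals, and shares had Clopper-Pearson intervals. Intervals cover counting error only. A gene was compared at 20 counts or more over both sums and called higher or lower past 2-fold. Against a sum of 0, a bound was set with a floor of 3 counts, and a share of 0 was bounded by 3 counts of the total. Free RNA was read from barcodes with 1 to 50 UMIs. Shares across depths were repeated after thinning each cell to 700 UMIs (alternative 1000).

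Of the genes on 39 lists, 2 had no row under their symbol or an older one. Named genes were the 11 rule genes, then the 15 highest and 5 lowest against other lung cells and the 10 highest and 10 lowest between stages, ranked by whichever interval end lay closer to equality (in the weaker library where both count). To these came the 6 highest and 6 lowest between capillary sides by the weaker ratio, up to 4 or all members of each list, and Erbb2, Ptprc and Epcam. List members at or near 0, and members that set a list's count, were also named after their values were seen. Mitochondrial, ribosomal protein, unnamed and pseudogene entries were left out of the ranked sets, and 1 gene of the set between stages is not reported here. The members and lists were chosen with earlier results of these data known. Positions are from GENCODE M21. Python 3.11.15, numpy 2.4.6, scipy 1.17.1, pandas 2.3.3 and matplotlib 3.10.9 were used, and the statistics were tested on simulated data with known ratios.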

Additional observations from a re-analysis of the deposited data

Results flagged for a closer look

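Col4a2, a type IV collagen of basement membranes, lay on opposite sides of the other lung cells in the lung libraries. Its log2 ratio in endothelial-like over other lung cells was 1.05 in the late lung (16 UMIs in endothelial-like cells) and -2.40 in the early lung (2 UMIs). Sqstm1, the autophagy receptor, did the reverse, with -1.59 in the late lung (3 UMIs) and 1.39 in the early lung (17 UMIs). Each stage is 1 library, and the difference between stages was not tested for either gene.

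Outside the lungs, 4 of 1297 called cells of the early lesion library passed the endothelial rule (0.308%, exact 95% interval 0.0841% to 0.788%), with 831 to 2411 UMIs, and 0 of 416 in the primary tumor library, which allows a share of up to 0.721% (3 counts of the total). The 4 cells held 202 UMIs of Fabp4, a fatty acid binding protein of capillaries in fat and muscle, against 0 in the 39 late and 55 early lung cells. They also held 8 UMIs of Cd36, 10 of Gpihbp1 and 6 of Plvap, and 0 of Tmem100. Csn2, the milk protein beta-casein, had 31 UMIs in them.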

How the results depend on the processing

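Of 118 repeats of the endothelial-like shares, aerocyte side shares and counts of genes past 2-fold under another setting, 83 stayed close to the reported value, and 35 moved. Counts of list members past 2-fold were not repeated. Of 2365 repeats for single genes and list medians 148 had the opposite sign, 16 of them where the reported value was past 2-fold, and 370 besides these 16 moved. Counts of genes follow how many genes could be compared. With 50 counts as the minimum, 111 genes were higher and 128 lower than in other lung cells in the late lung, 96 and 110 in the early lung, and 10 and 11 between stages. With no minimum these were 3520 and 1715, 3141 and 1909, and 2626 and 2181. With 5 counts added, 108 (late) and 138 (early) were lower than in other cells, and 28 and 19 were higher and lower between stages. A UMI minimum of 1000 gave a late share of 11.3%, an early aerocyte side of 7.14% of placed cells, and 233 higher and 219 lower genes in the late and 225 and 172 in the early lung. Keeping cells over 10000 UMIs gave 1044 higher genes in the late lung and 390 and 182 between stages, with late medians of 1.69 (inflammation) and 0.068 (fibroblast). A minimum of 6 marker UMIs gave shares of 13.9% late and 23.4% early. Leaving out cells with UMIs of another type gave shares of 12.9% and 19.0%, 30 and 27 genes between stages, and -0.34 for H2-Aa. Without cells over 2000 UMIs, chosen after seeing the data, 202 late and 213 early genes were higher than in other cells, 34 and 37 differed between stages, and Kdr stood at -0.54 (-0.017 with cells weighted equally).

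Few-gene medians turned. The aerocyte genes kept out of the split stood against other cells at -0.86 (UMI minimum 1000, early), -0.33 and -0.40 (50 counts, late and early), -0.28 and -0.10 (other-type cells left out, late and early) and -0.77 (over 2000 UMIs left out, late). The late VEGF list stood at -0.73 with other-type cells left out and -1.15 without cells over 2000 UMIs. The late inflammation list stood at 1.43 with 3 marker UMIs, 0.074 at 50 counts and 0.39 with no minimum. Beyond the comparisons that lose genes or cells by construction, the cause was not tested. No paired analysis was possible because each stage is 1 library. For the same reason no replicate could be left out. Depth limits genes at a few UMIs: a count of 0 in 39 cells allows a share of cells with a UMI of up to 7.69% (3 of 39).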
